A study of Homo sapiens with 18 samples.

Results

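RNA sequencing of RSL3-treated MM1R cells was compared with RNA sequencing of RSL3-treated MM1S cells, 3 libraries of each line, to find which differences between the lines were present in cells exposed to the ferroptosis inducer. These 6 libraries were all the libraries given RSL3 alone among the 18 of the series, and their labels chose them. MM1S and MM1R are human multiple myeloma lines of the same origin, MM1S sensitive and MM1R resistant to glucocorticoids, and the cells of both lines received 5 µM RSL3 for 3 h. The MM1R libraries came from passages 4, 6 and 7 (replicates 1, 2 and 3) and the MM1S libraries from passages 16, 22 and 23, so that line and passage number cannot be told apart. Of the other libraries, 3 untreated libraries per line from the same passages entered the fit as the background of the line difference without RSL3. Another 3 libraries per line received 2 µM Fer-1 for 2 h before RSL3. They were used only for checks, because 1 of them, MM1R Fer-1 + RSL3 replicate 2, went against its label in part. The check of overlap between the lines left that library out. No vehicle was stated for the untreated cells. Each line is 1 cell line, so that the replicates are separate cultures and passages of the same cells and p-values measure the spread between them.

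RSL3 is a small molecule that inhibits GPX4, the selenium-containing peroxidase that reduces lipid hydroperoxides in membranes. When GPX4 is blocked, iron-dependent peroxidation of polyunsaturated phospholipids proceeds unchecked and the cell dies by ferroptosis, which Fer-1 (ferrostatin-1) prevents by trapping lipid radicals. Myeloma cells derive from plasma cells, which secrete antibody at a high rate and are sensitive to glucocorticoids through the glucocorticoid receptor, a ligand-activated transcription factor encoded by NR3C1.

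The 6 RSL3 libraries held 17635438 to 18962868 counts in all, so that the lines were measured at nearly the same depth. Levels are given as CPM, counts scaled by library size with TMM factors, and a difference is the fitted log2 fold change of MM1R over MM1S, so that negative values mean a higher level in MM1S cells. The lines were compared gene by gene with the quasi-likelihood test of edgeR, adjusted by Benjamini-Hochberg (FDR), and a DEG had an FDR under 0.05 and a log2 difference over 1 in size. Plasma cell markers were present in all libraries. Syndecan-1 (SDC1), the surface proteoglycan that defines plasma cells, was at 552 to 694 CPM in MM1R cells and 370.4 to 570.0 CPM in MM1S cells, and the plasma cell transcription factor IRF4 was at 574 to 971 CPM in MM1R cells and 754 to 1111 CPM in MM1S cells. Of 10 plasma cell markers listed, 9 passed the filter on low counts and CD27 had at most 6 counts per library. Replicate libraries differed by more than counting noise. Chi-square divided by its degrees of freedom was 35.4 to 49.9 between MM1R libraries and 7.94 between MM1S replicates 2 and 3. MM1S RSL3 replicate 1 stood apart, at 142 and 165 against these 2. Its heat shock and chaperone genes summed to 61516 CPM, against 19037 and 19272 CPM in the other two MM1S libraries. For many of the genes and lists that this library moved, the value without it is given beside the result.

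The gene that separates the lines by their history was measured first. NR3C1, the glucocorticoid receptor gene (hg19 chr5:142657496-142815077), was at 22.3, 16.4 and 19.3 CPM in MM1R cells and 391, 100.5 and 96.3 CPM in MM1S cells (log2 difference -3.34, standard error 0.52, FDR = 0.00362). Every MM1R library was below every MM1S library, and MM1S replicate 1 was far above the other two. Without that library the log2 difference was -2.35 (FDR = 7.5e-06). Without RSL3 the difference was of similar size (-2.96, FDR = 0.00649). GPX4, the target of RSL3, was at 271, 268 and 268 CPM in MM1R cells and 229.6, 217 and 227 CPM in MM1S cells (log2 difference 0.26, standard error 0.11, FDR = 0.179). The groups did not overlap, but the difference did not pass the test under RSL3, and in untreated cells it was 0.46 (FDR = 0.0184), below the size required of a DEG.

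Under RSL3, 633 of the 13958 genes tested were DEGs between the lines, of which 381 were higher in MM1R and 252 were higher in MM1S cells (4.54% of the genes tested, 2.73% and 1.81%). At an unadjusted p under 0.05 there were 3092, and the RSL3 libraries of the lines did not overlap in 3636 genes (26%). Untreated cells gave 634 line DEGs (4.54%), 360 higher in MM1R (2.58%) and 274 higher in MM1S cells (1.96%). A set of 452 genes (3.24% of the genes tested) were line DEGs with and without RSL3 in the same direction, 265 higher in MM1R and 187 higher in MM1S cells, which is 71.4% of the DEGs under RSL3 and 71.3% of the untreated DEGs. No gene was a DEG in opposite directions. Of the 633 DEGs under RSL3, 627 (99.1%) had a difference of the same sign in untreated cells, against 76.8% of all genes tested. Across all genes the 2 sets of line differences, which share no library but come from the same passages, had a Pearson r of 0.886 and a Spearman correlation of 0.73 over genes, which are not independent replicates. A sum of 71 DEGs had a mean under 1 CPM even in the higher line.

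**Figure D1:**
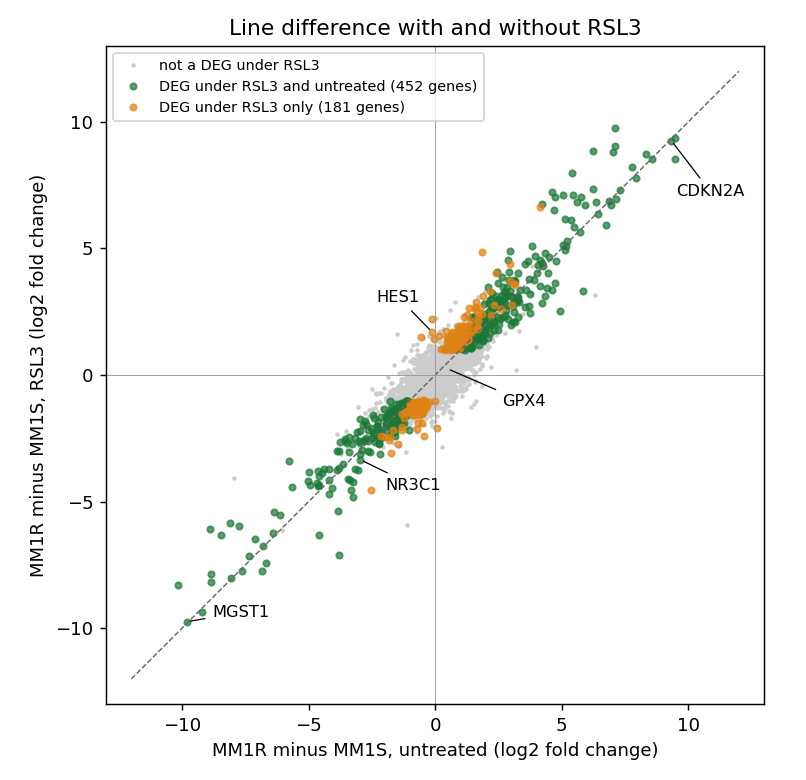
Log2 difference MM1R over MM1S under RSL3 (y axis) against the same difference in untreated cells (x axis), 1 point per gene tested, coloured by where the gene was a DEG. Most points that are far from 0 lie along the diagonal, and the 181 genes that were DEGs only under RSL3 lie mostly on the same side of 0 in both axes, 175 of them with the same sign.

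Part of the difference was of the on and off kind. At most 3 counts in every RSL3 library of a line, with a mean of at least 1 CPM in the other, was found for 33 DEGs that were on in MM1R and for 20 that were on in MM1S cells. Of these, 21 and 18 were also at most at 3 counts in the untreated libraries of the silent line. Intervals and bounds given for such genes cover counting error only, since PCR copies were not told apart from molecules.

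Cancer-testis antigens, proteins normally made in germ cells that many tumours express, were on in MM1R cells. SSX1, a transcriptional repressor of this class on chromosome X, had 265, 367 and 274 counts in the MM1R libraries and 1, 1 and 0 in the MM1S libraries, a ratio of 441-fold in summed CPM (95% Clopper-Pearson interval 122 to 3650.0). CTAG2 (LAGE-1) was at 47, 59.7 and 67.2 CPM in MM1R cells and 0, 0.157 and 0.21 CPM in MM1S cells (log2 difference 8.72, standard error 0.47, FDR = 3.24e-07). MAGEA6, a member of the MAGE family of ubiquitin ligase regulators, had 68, 88 and 83 counts in MM1R and none in any MM1S library, so that it was at least 25.6-fold higher against a floor of 3 counts per library. MAGEA10, of the same family, had 80, 55 and 59 counts in MM1R and none in MM1S cells, at least 20.7-fold higher. No MM1S library reached the lowest MM1R library for these genes, which for SSX1 and CTAG2 was a condition of the choice. Of the 10 tested genes of the cancer-testis families (MAGE, SSX, GAGE, PAGE, XAGE, CTAG, CT45, CT47, CSAG and PRAME), 7 were DEGs (70%, against 4.54% of all genes). All 7 were higher in MM1R cells, under RSL3 as in untreated cells. Some of the 10, SSX1, MAGEA6 and MAGEA10 among them, passed the filter on low counts only through the MM1R libraries. The share and its direction were thus shaped by the filter and are no result about the families. MAGEC3, CSAG1 and MAGEA12, named after their values were seen, were the other 3, with log2 differences of 1.65, 4.93 and 6.82. CSAG1 was at 6.6 and MAGEA12 at 8.14 without MM1S RSL3 replicate 1. MAGE, SSX and CTAG genes have close paralogs, and how reads shared between copies were counted is not given, so that the value of a single copy is uncertain.

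The promoters of genes that were on in a single line are shown for SSX1 and MAGEA12 (on in MM1R) and MGST1 (on in MM1S), and that of HES1 is shown because it was a line DEG under RSL3 and not in untreated cells. Each runs from 250 bases before to 50 bases after the RefSeq start site (GRCh38.p14, plus strand), 5′ to 3′, with each CG dinucleotide in capitals. The windows lie at chrX:48255142-48255441 for SSX1, chrX:152733507-152733806 for MAGEA12, chr12:16347395-16347694 for MGST1 and chr3:194135898-194136197 for HES1.
SSX1: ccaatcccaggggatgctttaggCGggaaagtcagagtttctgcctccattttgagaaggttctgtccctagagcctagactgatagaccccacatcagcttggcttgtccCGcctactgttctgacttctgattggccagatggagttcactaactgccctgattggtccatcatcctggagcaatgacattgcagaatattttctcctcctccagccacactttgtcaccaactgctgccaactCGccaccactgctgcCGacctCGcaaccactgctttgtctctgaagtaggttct
MAGEA12: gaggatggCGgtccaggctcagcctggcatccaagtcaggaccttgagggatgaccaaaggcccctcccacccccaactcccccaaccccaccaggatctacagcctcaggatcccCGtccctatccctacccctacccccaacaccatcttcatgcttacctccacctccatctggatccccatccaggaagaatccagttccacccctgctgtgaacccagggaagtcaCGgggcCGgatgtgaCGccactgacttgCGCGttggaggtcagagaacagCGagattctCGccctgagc
MGST1: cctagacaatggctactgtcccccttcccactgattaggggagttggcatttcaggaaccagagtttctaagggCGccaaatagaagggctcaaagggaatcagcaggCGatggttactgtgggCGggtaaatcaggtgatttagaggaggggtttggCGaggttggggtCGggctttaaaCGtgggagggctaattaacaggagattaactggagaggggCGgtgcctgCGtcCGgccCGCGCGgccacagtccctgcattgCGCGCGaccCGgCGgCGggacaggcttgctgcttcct
HES1: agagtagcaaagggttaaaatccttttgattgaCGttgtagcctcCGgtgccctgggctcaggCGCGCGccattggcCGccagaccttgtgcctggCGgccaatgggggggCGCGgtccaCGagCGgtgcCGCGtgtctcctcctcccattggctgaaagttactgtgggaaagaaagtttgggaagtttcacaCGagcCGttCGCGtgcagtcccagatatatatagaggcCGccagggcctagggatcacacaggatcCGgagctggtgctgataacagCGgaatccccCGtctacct
These 300 bases held 5 CG dinucleotides in SSX1, 9 in MAGEA12, 18 in MGST1 and 21 in HES1, counted on 1 strand, which reads the same on the other. As many or more were held by 92.6%, 87.4%, 74.5% and 67.1% of the 10309 promoters matched by symbol to a tested gene. The start sites of MAGEA12 and CSAG1 lie 36 bases apart, on opposite strands and facing away from each other, so that their windows share sequence. The median CG number was 17.5 over the 280 DEGs higher in MM1R with a matched promoter, 23 over the 171 higher in MM1S, 9 over 5 cancer-testis DEGs and 26 over all matched genes. The HES1 window also held the letters CACNAG, the N-box that HES proteins bind, 2 times on the plus strand and 2 times on the minus strand, and 35% of all matched promoters held it on either strand.

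The cell cycle inhibitors of the chromosome 9 INK4 locus were expressed in MM1R cells and at 0 to 4 counts per library in MM1S cells. CDKN2A, which encodes the CDK4 and CDK6 inhibitor p16 and the p53 activator p14ARF (hg19 chr9:21967751-21995300), was at 67, 86.9 and 97.5 CPM in MM1R cells and 0, 0.209 and 0.158 CPM in MM1S cells (log2 difference 9.25, standard error 0.49, FDR = 3.37e-07). CDKN2B, the neighbouring p15 inhibitor gene (chr9:22002902-22009304), had 132, 85 and 102 counts in MM1R and none in any MM1S library, at least 34.1-fold higher. These were the only DEGs among 32 tested cell cycle genes. The kinases CDK2 (-0.65, FDR = 0.00749) and AURKB (-0.81, FDR = 0.0194) passed the FDR at a difference under 1, in the direction of MM1S. LINC01518, a long non-coding RNA, had 460, 291 and 332 counts in MM1R and 0, 1 and 1 in MM1S cells, a ratio of 528-fold in summed CPM (95% Clopper-Pearson interval 146 to 4362). LOC105372578, an uncharacterised locus, had 0 counts in MM1S cells and was at least 18.1-fold higher in MM1R cells.

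The other MM1R-high genes with the smallest FDR were expressed in both lines or nearly so. NLRP11, a member of the NLR family of innate immune regulators, was at 227, 213 and 222 CPM in MM1R cells and 4.72, 9.52 and 11.4 CPM in MM1S cells (log2 difference 4.68, standard error 0.28, FDR = 1.02e-06). BTK, the kinase downstream of the B cell receptor, was at 55.3, 55.4 and 45.8 CPM in MM1R cells and 8.39, 7.38 and 7.42 CPM in MM1S cells (log2 difference 2.76, standard error 0.15, FDR = 2.67e-07). ADGRE5 (CD97), an adhesion G protein-coupled receptor of leukocytes, was at 23.6, 27.2 and 29 CPM in MM1R cells and 0.59, 0.523 and 1.1 CPM in MM1S cells (log2 difference 5.14, standard error 0.26, FDR = 1.51e-07). In each case the lowest MM1R library was several times above the highest MM1S library. NES, the intermediate filament nestin, was at 39.1, 44.9 and 51.7 CPM in MM1R cells and 1.31, 0.262 and 1.16 CPM in MM1S cells (log2 difference 5.66, standard error 0.39, FDR = 3.65e-06). TUBB4A, a tubulin normally of the brain, was at 32.4, 24.7 and 33.4 CPM in MM1R cells and 2.82, 1.41 and 1.42 CPM in MM1S cells (log2 difference 4.02, standard error 0.26, FDR = 1.15e-06). NCF1, a subunit of the phagocyte NADPH oxidase whose pseudogenes share its reads, was at 54.5, 53.7 and 49.6 CPM in MM1R cells and 15.5, 14.8 and 14.3 CPM in MM1S cells (log2 difference 1.82, standard error 0.13, FDR = 3.65e-06). Without RSL3 the differences of these 6 genes were 4.48, 2.84, 5.04, 5.73, 4.04 and 1.59, in that order.

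Among the genes on in MM1S cells was a membrane-bound glutathione enzyme. MGST1, microsomal glutathione S-transferase, which also reduces lipid hydroperoxides (hg19 chr12:16500076-16762193), had 1, 0 and 0 counts in MM1R and 311, 400 and 435 in MM1S cells, a ratio of 1176-fold in summed CPM (95% Clopper-Pearson interval 211 to 46499). The untreated difference was the same in kind (-9.81 against -9.74 under RSL3). SPIN3, a spindlin family gene whose proteins read histone methylation, had 1, 0 and 0 counts in MM1R and 98, 161 and 157 in MM1S cells, a ratio of 427-fold in summed CPM (95% Clopper-Pearson interval 76.2 to 16905). MBP, which encodes myelin basic protein and the golli proteins of lymphoid cells, was at 0.107, 0 and 0.171 CPM in MM1R cells and 16.9, 26.5 and 25.6 CPM in MM1S cells (log2 difference -7.88, standard error 0.37, FDR = 9.76e-08). The zinc finger gene ZNF175 was at 0 counts in MM1R cells and at least 26.6-fold higher in MM1S cells, and so were ZNF605 (at least 11.6-fold) and the lysosomal transporter gene SLC46A3 (at least 10.6-fold). No MM1R library had more than 3 counts of any of these genes, which was a condition of choice for all but MBP.

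Other MM1S-high genes with the smallest FDR were GNE, the bifunctional enzyme that starts sialic acid synthesis, at 2.25, 1.77 and 1.43 CPM in MM1R cells and 19.5, 22.3 and 20.3 CPM in MM1S cells (log2 difference -3.5, standard error 0.19, FDR = 2.67e-07). LHX8, a LIM homeobox transcription factor, was at 4.34, 2.69 and 5.48 CPM in MM1R cells and 34.9, 33.7 and 31.6 CPM in MM1S cells (log2 difference -3.0, standard error 0.21, FDR = 2.56e-06). CMTR1, the methyltransferase that completes the mRNA cap, was at 33.1, 31.3 and 30.6 CPM in MM1R cells and 76.5, 75.2 and 75.1 CPM in MM1S cells (log2 difference -1.25, standard error 0.09, FDR = 3.65e-06). In CMTR1 the replicates of each line lay close together. That the groups did not overlap was a condition of the choice of these genes. SDC2, the syndecan of mesenchymal cells, was at 0.228 to 0.697 CPM in MM1R cells and 7.53 to 12.6 CPM in MM1S cells (log2 difference -4.28, standard error 0.38, FDR = 2.49e-05). VAV2, an exchange factor for small GTPases, was at 1.24 to 1.39 CPM in MM1R cells and 10.2 to 20.6 CPM in MM1S cells (log2 difference -3.7, standard error 0.34, FDR = 3.26e-05). JAKMIP1, which binds Janus kinases and microtubules, was at 7.08 to 9.65 CPM in MM1R cells and 33.5 to 50.1 CPM in MM1S cells (-2.26, FDR = 9.06e-06), and SPINT2, an inhibitor of serine proteases, was at 26.4 to 29.8 CPM in MM1R cells and 63.6 to 64.8 CPM in MM1S cells (-1.17, FDR = 3.29e-05). The 10 genes of lowest FDR in either direction, JAKMIP1 and NLRP11 among them, all kept their call when each of the 12 libraries was left out in turn.

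**Figure D2:**
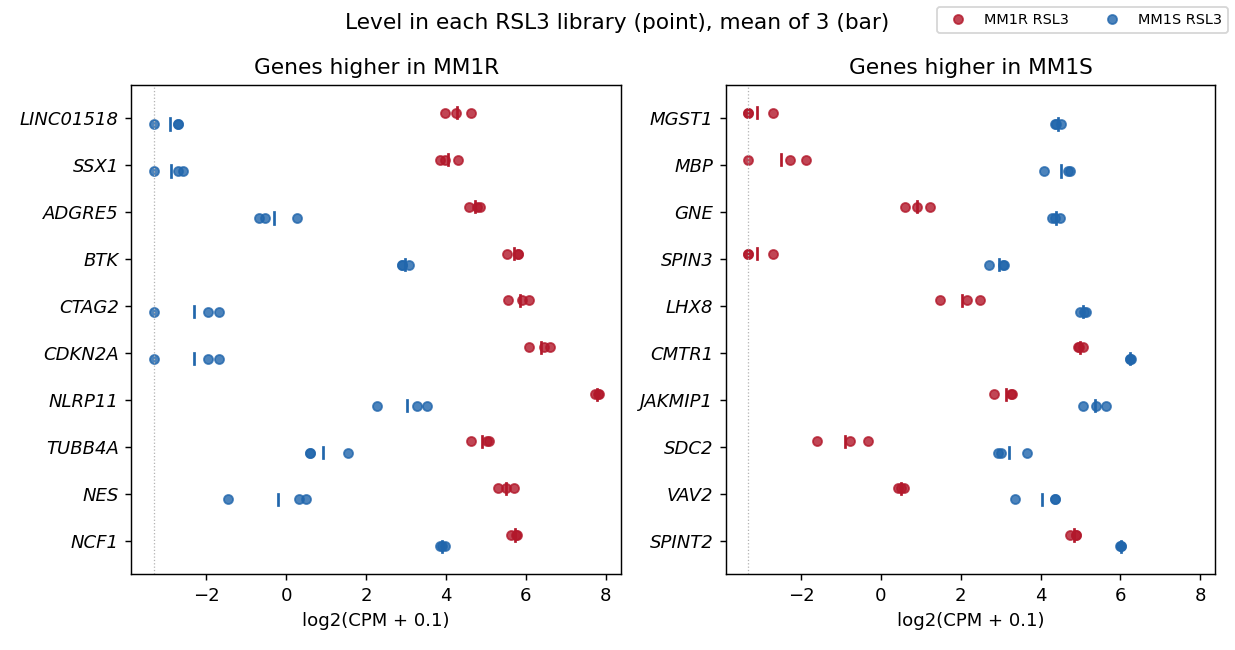
CPM on a log scale (x axis) of the 10 named DEGs of each direction with the lowest FDR (y axis), 1 point per RSL3 library, coloured by line. The libraries of a line lie apart from those of the other line in each gene, which was a condition of the choice.

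Chromosome 19 had line DEGs in 8.24% of its 837 tested genes, 34 higher in MM1R and 35 in MM1S cells, against 4.54% of all genes, and chromosome X had 7.49% of 454, 28 of its 34 DEGs being higher in MM1R cells. Of 193 tested ZNF genes on chromosome 19, which encode mostly KRAB repressors of transposable elements, 34 (17.6%) were DEGs, 15 higher in MM1R and 19 in MM1S cells. A running median over 21 neighbouring genes, chosen after the values were seen, marked a stretch at hg19 chr19:19976691-23870022 with 22 tested genes, 20 of them ZNF genes, of which 9 were DEGs and all 9 were higher in MM1S cells. Its median log2 difference was -0.89 under RSL3 and -0.87 untreated. A stretch was a run of at least 10 genes whose running median under RSL3 was over 0.5 in size. The median under RSL3 and the shared direction of the DEGs were thus shaped by the choice, here and in the second stretch. ZNF486 in this stretch had a difference of -6.23 (FDR = 0.000174) and ZNF714 of -2.52 (FDR = 9.66e-05), whereas ZNF626 was at 2.39 (FDR = 0.105). A second stretch, chr19:52534631-53947923, held 21 tested genes, 19 of them ZNF genes, with 6 DEGs higher in MM1S cells and a median of -0.84 under RSL3 and -1.03 untreated. ZNF888 (-4.16, FDR = 0.0003) and ZNF528 (-4.53, FDR = 0.00707) had its largest differences, while its neighbour PPP2R1A, a scaffold subunit of protein phosphatase 2A, was at 0.03 (FDR = 0.912). These 4 ZNF DEGs were named after their values were seen, and ZNF genes of a cluster are similar enough in sequence that reads can be shared between them.

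Among the 633 DEGs, 181 were not DEGs in untreated cells, 116 higher in MM1R and 65 higher in MM1S cells. In untreated cells 175 of them had a difference of the same sign, 59 a difference over 1 in size, 36 an FDR under 0.05, and 123 libraries that did not overlap between the lines. The share of all genes tested whose untreated libraries did not overlap is not given here, so that the 123 cannot be judged against it. The test of whether the difference itself changed with RSL3, the interaction of line and treatment, gave 0 DEGs (0%) by edgeR, with a smallest FDR of 1 and 169 genes (1.21%) at an unadjusted p under 0.05, of which 13 were among the 181. With the passage as a block, which compares each RSL3 library with the untreated library of its passage, the interaction again gave 0 DEGs, at a smallest FDR of 0.294, with 491 genes at an unadjusted p under 0.05.

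HES1, a repressor induced by Notch and serum signals, had the smallest interaction p among the DEGs found only under RSL3. It was at 19.4, 19.8 and 17.5 CPM in MM1R cells and 6.1, 6.28 and 5.05 CPM in MM1S cells under RSL3 (log2 difference 1.7, standard error 0.25, FDR = 0.00101). In untreated cells it was at 6.7, 6.94 and 12.5 CPM in MM1R cells and 12.1, 7.5 and 8.75 CPM in MM1S cells (-0.12, FDR = 0.825). The RSL3 libraries did not overlap, with all 3 MM1R libraries above the MM1S libraries, whereas the untreated libraries overlapped. Relative to the untreated library of the same passage, HES1 changed by 1.52, 1.5 and 0.48 (log2) in MM1R and by -0.98, -0.25 and -0.78 in MM1S cells. The interaction was 1.82 (unadjusted p = 0.000161, FDR = 1 by edgeR). By DESeq2 it passed the adjustment (FDR = 0.00798), as it did by edgeR with no filter on low counts (FDR = 0.00673), and it did not with the passage as a fixed block (FDR = 0.978).

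The other genes of this kind were at low levels. ENTPD3-AS1, an antisense RNA, was at 1.45, 1.67 and 1.08 CPM in MM1R cells and 0.459, 0.523 and 0.473 CPM in MM1S cells (log2 difference 1.51, standard error 0.34, FDR = 0.0148), against -0.56 untreated (interaction 2.07, unadjusted p = 0.000885). NRG4, an EGF-like growth factor for ERBB4, was at 1.72, 0.967 and 0.97 CPM in MM1R cells and 0.328, 0.523 and 0.473 CPM in MM1S cells (log2 difference 1.44, standard error 0.36, FDR = 0.0257), against -0.04 untreated. Both had non-overlapping RSL3 libraries, but ENTPD3-AS1 lost its call without MM1R RSL3 replicate 2 or MM1S RSL3 replicate 2 or 3 (FDR up to 0.0736) and NRG4 without MM1R RSL3 replicate 1 or any MM1S RSL3 library (FDR up to 0.108). GIMAP7, a lymphocyte GTPase (2.23, FDR = 0.0329), lost its call without MM1R RSL3 replicate 1 or 2, MM1R untreated replicate 2 or MM1S RSL3 replicate 1 or 3 (FDR up to 0.114). DCHS1, a protocadherin (1.52, FDR = 0.0256), lost it without MM1R RSL3 replicate 1 or 3 or MM1S RSL3 replicate 2 or 3 (FDR up to 0.0955).

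In the other direction, WTIP, an adaptor protein that binds WT1, was at 0.0536, 0.269 and 0.114 CPM in MM1R cells and 0.787, 1.05 and 0.579 CPM in MM1S cells under RSL3 (log2 difference -2.41, standard error 0.5, FDR = 0.00939), against -0.43 untreated. CBR3-AS1 was at 1.72, 0.913 and 1.26 CPM in MM1R cells and 3.34, 3.92 and 3.63 CPM in MM1S cells (log2 difference -1.48, standard error 0.28, FDR = 0.00589), against -0.52, and both kept their call when any library was left out. It lies antisense to CBR3, and since the use of strand is not given the reads of the pair cannot be told apart. AMH, the anti-Müllerian hormone gene, was at 4.13, 3.33 and 4.68 CPM in MM1R cells and 9.31, 8.21 and 6.89 CPM in MM1S cells (log2 difference -1.01, standard error 0.23, FDR = 0.0151), against 0.01 untreated, and lost its call without MM1R RSL3 replicate 2 or MM1S RSL3 replicate 1 or 2 (FDR up to 0.0789). TMEM86B, a lysoplasmalogenase, was at -1.0 (FDR = 0.000826) against -0.46, so close to the size required that its difference went under 1 without MM1R RSL3 replicate 2 or 3 or MM1S RSL3 replicate 2, at an FDR up to 0.00695. The uncharacterised LOC112268419 (-2.08, FDR = 0.0129) lost its call without MM1R RSL3 replicate 2 or MM1S RSL3 replicate 2 (FDR up to 0.06).

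The remaining genes with the smallest interaction p were not line DEGs under RSL3. For MM1R the line difference moved upward with RSL3 in STARD13, a GTPase-activating protein (-1.43 untreated, 0.08 under RSL3), RRM2B, the p53-induced subunit of ribonucleotide reductase (-0.59 to 0.13), and NHSL2, an NHS-like protein gene (-1.34 to -0.14). It moved downward in CCDC96, a coiled-coil protein of cilia (1.24 to -0.46), and in the uncharacterised LOC107984421 (0.61 to -0.56). None of these interactions passed the adjustment by edgeR, where the FDR was 1.

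**Figure D3:**
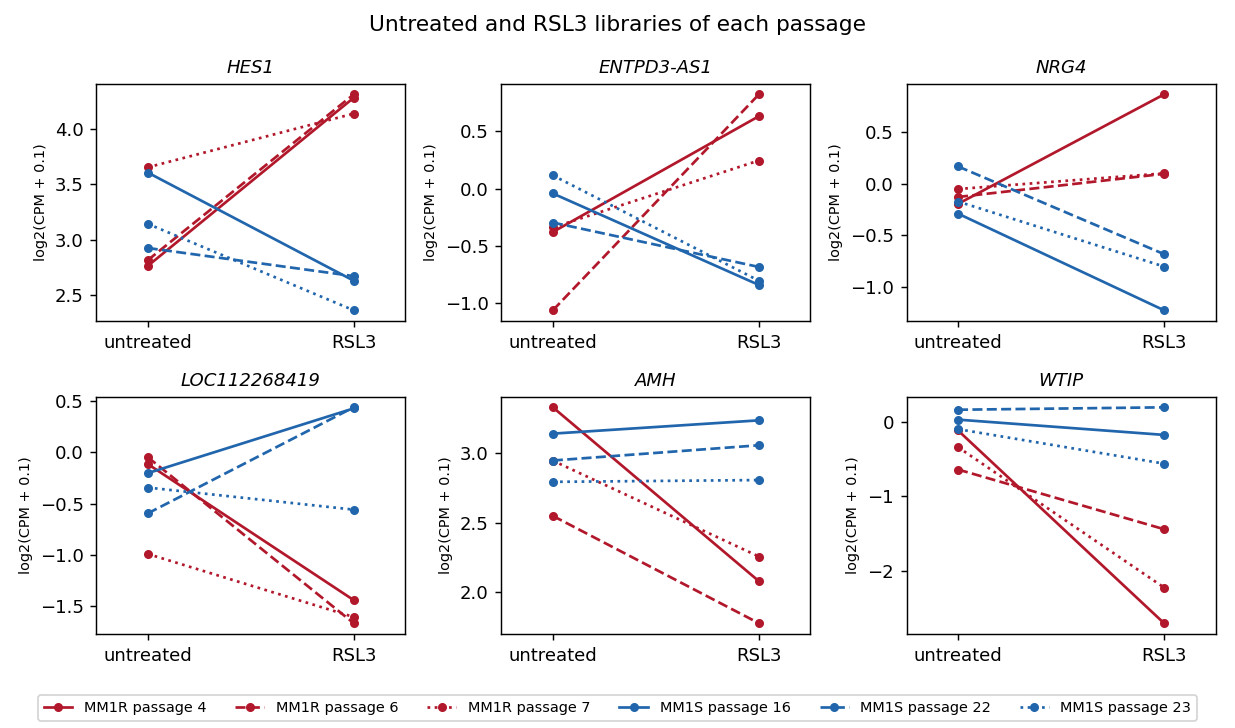
Level as log2(CPM + 0.1) (y axis) in the untreated and the RSL3 library (x axis), joined by a line for each passage of MM1R and MM1S cells. The genes are HES1, ENTPD3-AS1, NRG4, LOC112268419, AMH and WTIP. HES1 rises in all 3 MM1R passages and falls in all 3 MM1S passages, and its log2 changes within MM1R cells run from 0.48 to 1.52.

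The genes around the target of RSL3 were described next, and counts of list members are to be read against the shares over all genes tested, 4.54% for DEGs, 8.4% for the FDR alone and 26% for libraries that do not overlap. None of the 24 tested genes of the list of GPX4-linked and lipid peroxidation genes, which does not hold MGST1, was a DEG, and 5 passed the FDR at a difference under 1. The median log2 difference was -0.17, against -0.02 over all genes tested. All 5 were higher in MM1S cells. They were FADS1, a desaturase in the synthesis of polyunsaturated fatty acids (58.8 ± 2.86 CPM in MM1R cells and 109.6 ± 7.92 CPM in MM1S cells, log2 difference -0.9, FDR = 0.00109), SCD5, a stearoyl-CoA desaturase (-0.82, FDR = 0.0122), PLIN2, which coats lipid droplets (-0.58, FDR = 0.0117), and the phospholipid acyltransferases MBOAT2 (-0.53, FDR = 0.0136) and MBOAT1 (-0.38, FDR = 0.0295). ACSL4, which activates polyunsaturated fatty acids for membrane phospholipids, was at 49.8, 61.4 and 58.4 CPM in MM1R cells and 54.1, 59.6 and 59.8 CPM in MM1S cells (-0.03, FDR = 0.913), and the groups overlapped. AIFM2 (FSP1), the GPX4-independent reductase of coenzyme Q, was at 43.5, 53.7 and 59.7 CPM in MM1R cells and 61, 81.8 and 77.2 CPM in MM1S cells (-0.49, FDR = 0.142).

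Of 33 tested glutathione, cystine and NADPH genes, 1 was a DEG higher in MM1R and 1 higher in MM1S cells (6.06%, against 4.54% of all genes). Of the 33, 5 passed the FDR (8.4% of all genes) and 16 had libraries that did not overlap (26% of all genes), and the median was -0.01, or 0.04 without MM1S RSL3 replicate 1. The MM1S-high DEG was MGST1, given above. The MM1R-high DEG was GPX7, a peroxidase of the endoplasmic reticulum, at 13.4, 14.2 and 14 CPM in MM1R cells and 3.08, 0.157 and 0.368 CPM in MM1S cells (log2 difference 3.6, standard error 0.95, FDR = 0.0461), and it lost its call without any of the 6 MM1R libraries or MM1S RSL3 replicate 2 or 3 (FDR up to 0.136). Without MM1S RSL3 replicate 1 its difference was 5.69 (FDR = 0.0036). GPX1, the cytosolic glutathione peroxidase, was at 74.7, 92.2 and 100.4 CPM in MM1R cells and 12.5, 0.68 and 0.894 CPM in MM1S cells (log2 difference 4.3, standard error 1.33, FDR = 0.0887). The MM1R libraries were all above the MM1S libraries, but MM1S replicate 1 was far above the other two and the difference did not pass the test. Without that library it passed, at 6.81 (FDR = 0.0253). SLC7A11, the cystine importer that feeds glutathione synthesis, was at 54.5, 37 and 61.8 CPM in MM1R cells and 81.8, 69.7 and 64 CPM in MM1S cells (-0.49, FDR = 0.528). GCLM, the modifier subunit of the enzyme that starts glutathione synthesis, passed the FDR at -0.48 (38.9, 49.3 and 46.2 CPM in MM1R cells and 64.3, 66.4 and 57.1 CPM in MM1S cells, FDR = 0.0247). GGT1, which cleaves glutathione at the cell surface, passed it at 0.48 (FDR = 0.0182) and GSTM2, a cytosolic glutathione transferase, at 0.83 (FDR = 0.0126).

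Targets of NRF2, the transcription factor of the oxidative stress response, included no DEG higher in MM1R and 2 higher in MM1S cells of 28 tested (7.14%, against 4.54% of all genes). These 2 were CBR3 and FTH1, and FTH1 was counted again as the DEG of the iron and heme genes. The FDR was passed by 4 (8.4% of all genes), and the median was -0.2, or -0.01 without MM1S RSL3 replicate 1. CBR3, a carbonyl reductase, was at 3.81, 2.63 and 2.17 CPM in MM1R cells and 10.2, 11.1 and 10.6 CPM in MM1S cells (log2 difference -1.89, standard error 0.22, FDR = 0.000207), and NQO1, a quinone reductase, was at 13.5, 15.6 and 21.6 CPM in MM1R cells and 35.6, 28.2 and 31.9 CPM in MM1S cells (log2 difference -0.92, standard error 0.26, FDR = 0.0482), under the size of a DEG. HMOX1, which degrades heme, was at 236, 241 and 1407 CPM in MM1R cells and 2293, 305 and 428 CPM in MM1S cells (log2 difference -0.68, standard error 0.89, FDR = 0.725), and the highest MM1R and MM1S libraries stood far above the rest of their groups. Without MM1S RSL3 replicate 1 the difference of HMOX1 was 0.78 (FDR = 0.57). Of 25 tested iron and heme genes 1 was a DEG. FTH1, the ferritin heavy chain, was at 51.4, 37.9 and 51.1 CPM in MM1R cells and 149, 75.8 and 61.4 CPM in MM1S cells (log2 difference -1.03, standard error 0.27, FDR = 0.0368). FTH1 has many processed pseudogenes that can take its reads, and its call was lost without any of the 6 MM1R libraries, MM1S RSL3 replicate 1 or MM1S untreated replicate 2 (FDR up to 0.14). It was at -0.55 without MM1S RSL3 replicate 1. TFRC, the transferrin receptor that imports iron, was at 155, 188 and 297 CPM in MM1R cells and 360.2, 138 and 153 CPM in MM1S cells (-0.03, FDR = 0.979, or 0.55 without MM1S RSL3 replicate 1), and FTL, the ferritin light chain, at 5419, 5141 and 9668 CPM in MM1R cells and 7079, 3525 and 3287 CPM in MM1S cells (0.54, FDR = 0.491).

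**Figure D4:**
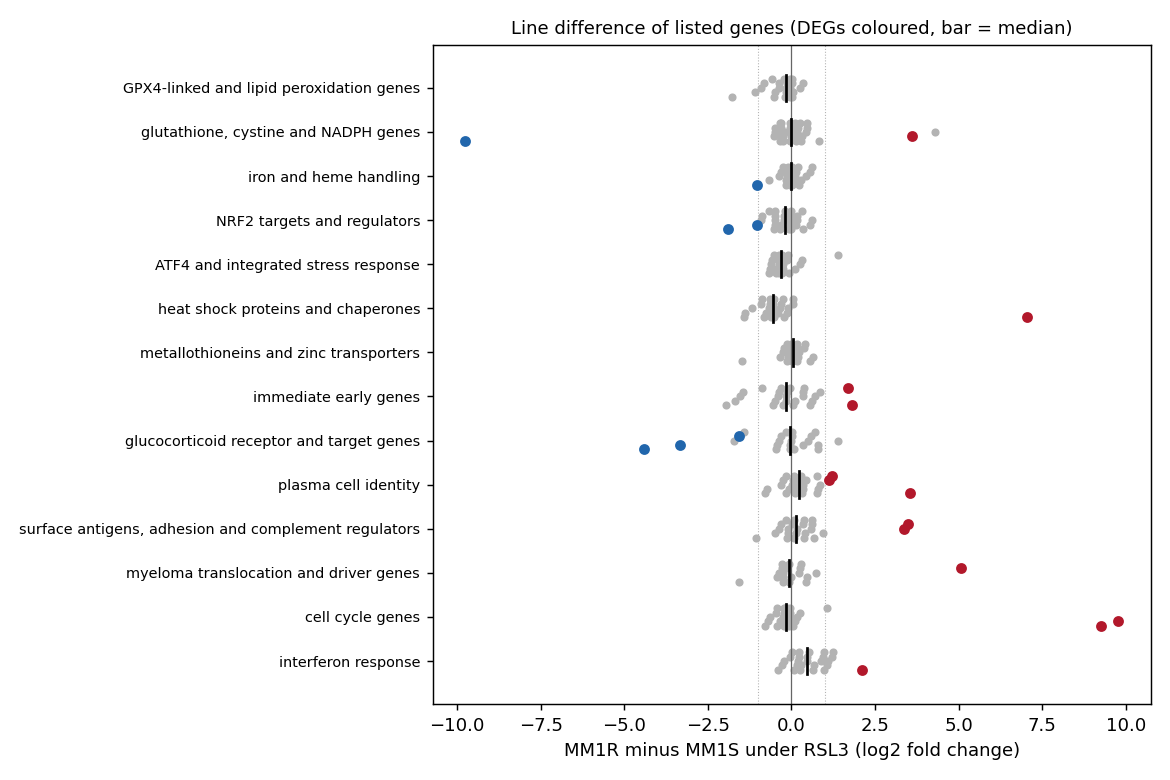
Log2 difference MM1R over MM1S under RSL3 (x axis) of the tested members of each gene list (rows), 1 point per gene, with DEGs marked. Most members of the lists lie near 0, and the points far from 0 are single genes such as MGST1, CDKN2A, CDKN2B and NR3C1.

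The acute stress response to RSL3 varied widely between the replicates of a line, and the lines overlapped. Heat shock proteins and chaperones summed to 16206, 16359.9 and 34924 CPM in MM1R and 61516, 19037 and 19272 CPM in MM1S cells, so that replicate 3 was the highest of MM1R and replicate 1 the highest of MM1S cells. Of 26 tested members 1 was a DEG, and the median difference was -0.56, or 0.07 without MM1S RSL3 replicate 1. That DEG, HSPB8, a small heat shock protein of selective autophagy, was detected in MM1R cells, at 0.804, 0.591 and 1.26 CPM against 0 counts in every MM1S library (at least 5.18-fold higher). HSPA6, the strictly inducible HSP70, was at 175, 91.7 and 1389 CPM in MM1R cells and 4310.5, 63.4 and 81.6 CPM in MM1S cells (-1.43, FDR = 0.66), and ATF3, a stress-induced transcription factor, was at 580.0, 97.7 and 1262 CPM in MM1R cells and 1854, 250.5 and 237 CPM in MM1S cells (-0.27, FDR = 0.913). The groups overlapped for both genes, and without MM1S RSL3 replicate 1 their differences were 2.93 (FDR = 0.136) and 1.41 (FDR = 0.361). The metallothionein gene MT1G was at 623, 6.23 and 196 CPM in MM1R cells and 536, 20.2 and 9.42 CPM in MM1S cells (0.55, FDR = 0.887, or 4.21, FDR = 0.124, without that library), and none of 22 tested metallothionein and zinc transporter genes was a DEG. None of 25 tested ATF4 and integrated stress response genes was a DEG or passed the FDR, with a median of -0.32, or -0.19 without that library.

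Immediate early genes, which are switched on within minutes of a signal, summed to 4406, 2256 and 9170.3 CPM in MM1R and 10856, 1989 and 1830.1 CPM in MM1S cells. Their median difference was -0.15 over 26 tested genes, and 1.35 without MM1S RSL3 replicate 1. NR4A1, an orphan nuclear receptor of this class, was at 315, 31.8 and 1394 CPM in MM1R cells and 2068, 15.4 and 11.3 CPM in MM1S cells (-0.27, FDR = 0.956). MM1S replicate 1 and MM1R replicate 3 were again the highest, and the groups overlapped. Without MM1S RSL3 replicate 1 the difference of NR4A1 was 5.44 (FDR = 0.0591). The 2 DEGs of the list, both higher in MM1R cells, were HES1 and ID2, an inhibitor of basic helix-loop-helix factors, at 35.5, 58.6 and 63.2 CPM in MM1R cells and 17.6, 13.6 and 13.6 CPM in MM1S cells (log2 difference 1.81, standard error 0.27, FDR = 0.00118), which was also a DEG in untreated cells (1.32). BTG2, an antiproliferative p53 target, passed the FDR at 0.86 (990.3, 848 and 1072 CPM in MM1R cells and 613, 513 and 481 CPM in MM1S cells, FDR = 0.00131).

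Genes that RSL3 raised on average over the lines were used as a second description of the response. They numbered 303 (2.17% of the genes tested), and 11 of them (3.63%) were line DEGs under RSL3, a share below the 4.54% of all genes. Of these, KCNK12 (a potassium channel), the uncharacterised LOC105376114, SAMSN1 (a negative regulator of B cell activation) and ELFN2 (a phosphatase inhibitor) were higher in MM1R cells. TMEM125 (a membrane protein), GBP2 (an interferon-induced GTPase), HOPX (an atypical homeobox factor), NEURL1 (a ubiquitin ligase), PRRG4 (a Gla domain protein), DUSP3 (a phosphatase of MAP kinases) and CBR3 were higher in MM1S cells. The median line difference of the 303 genes was -0.20, and without MM1S RSL3 replicate 1 it was 0.45, with 41 line DEGs, 35 of them higher in MM1R cells. With MM1R RSL3 replicate 3 also left out, it was 0.32, with 37 line DEGs. The direction of the median thus turned with the libraries in the fit. Of the 54 genes that RSL3 lowered (0.387%), 7 were line DEGs (13%, against 4.54% of all genes), with a median over the 54 genes of -0.04. The lymphoid repressor BCL11A, the chemokine receptor CCR2, the glutamate receptor GRM3 and the RING finger protein PDZRN4 were higher in MM1R cells. MYCL, a MYC relative, PLEKHG6, an exchange factor for small GTPases, and WTIP were higher in MM1S cells. Without MM1S RSL3 replicate 2, 3 of the lowered genes were line DEGs, and 4 were without MM1R RSL3 replicate 1, 2 or 3. Of the genes named here, NEURL1 and GRM3 lost their call without MM1S RSL3 replicate 1. The genes of these counts other than CBR3 and WTIP were named after their values were seen.

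**Figure D5:**
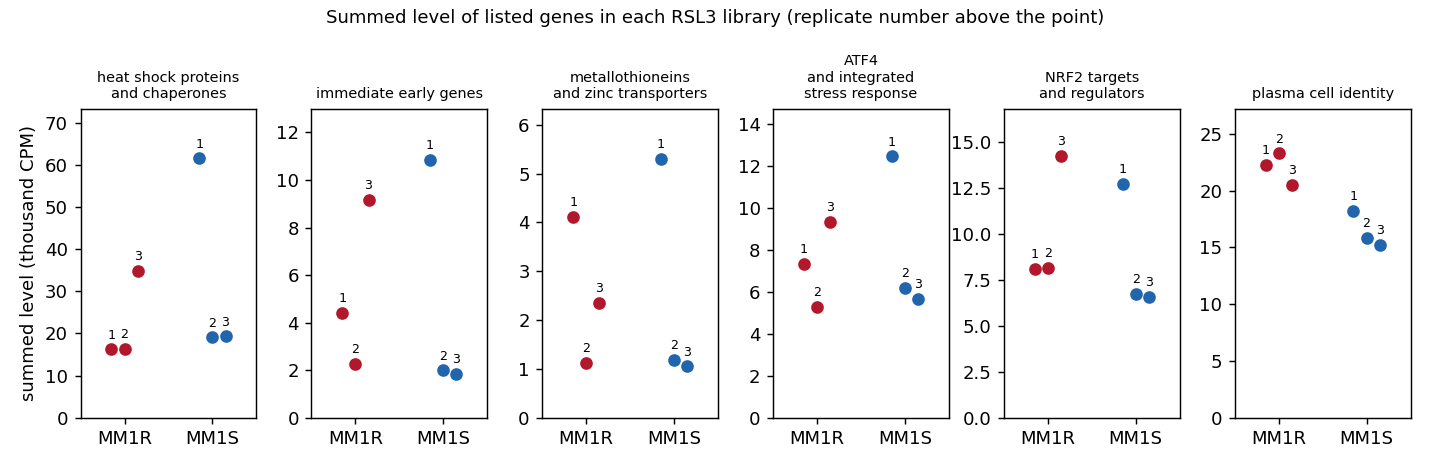
Summed CPM of gene lists (y axis, linear scale) in each RSL3 library of the 2 lines, 1 point per library with its replicate number above. The lists are heat shock proteins and chaperones, immediate early genes, metallothioneins and zinc transporters, ATF4 and integrated stress response, NRF2 targets and regulators, and plasma cell identity. The heat shock and immediate early sums are highest in MM1S RSL3 replicate 1 and MM1R RSL3 replicate 3, and the 2 lines overlap in these sums. The plasma cell identity sums do not overlap, but a single gene, JCHAIN, makes up a large part of each. The gap in this sum is thus not to be read as a trait of the whole list.

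Of 26 tested genes of B lineage and plasma cell identity, 3 were DEGs (11.5%, against 4.54% of all genes), all higher in MM1R cells, and 6 passed the FDR (8.4% of all genes). The median was 0.23, and untreated cells had 4 DEGs of the list higher in MM1R and 2 higher in MM1S cells. CD79A and CD79B are the signalling chains of the B cell receptor. CD79A was at 4.77, 4.03 and 2 CPM in MM1R cells and 0.59, 0.157 and 0.21 CPM in MM1S cells (log2 difference 3.53, standard error 0.49, FDR = 0.000742) and CD79B at 36.2, 38.6 and 39.6 CPM in MM1R cells and 22.8, 12.5 and 14 CPM in MM1S cells (log2 difference 1.22, standard error 0.25, FDR = 0.00849), and the libraries of the lines did not overlap. CD79A was at 4.24 without MM1S RSL3 replicate 1. CD38, an ectoenzyme of plasma cells, was at 72, 80.0 and 62.6 CPM in MM1R cells and 92.8, 128 and 137 CPM in MM1S cells (-0.74, FDR = 0.0775), with libraries that did not overlap. POU2F2, the octamer-binding factor OCT2, was at 19 to 27.9 CPM in MM1R cells and 8.26 to 12.5 CPM in MM1S cells (1.12, FDR = 0.0116), and its difference went under 1 without MM1R RSL3 replicate 1 or MM1S RSL3 replicate 3 (FDR up to 0.0471). JCHAIN, the joining chain of polymeric antibodies, was at 10889, 11848 and 8908 CPM in MM1R cells and 6758, 6084 and 5585 CPM in MM1S cells (0.78, FDR = 0.00382), and the integrin ITGA4 was lower in MM1R cells (97.2, 104 and 114 CPM in MM1R cells and 168, 177 and 200.4 CPM in MM1S cells, -0.79, FDR = 0.00219). IKZF3 (Aiolos), the lymphoid factor that lenalidomide removes, was at 0.78 (FDR = 0.00932). The list summed to 22267, 23284 and 20491 CPM in MM1R and 18203, 15818 and 15238 CPM in MM1S cells. JCHAIN alone made up a large part of each sum, so that the gap between the lines does not describe the list as a whole. In bulk RNA, a lower level in every cell cannot be told apart from fewer expressing cells.

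Of 23 tested genes of the glucocorticoid receptor list, 3 were DEGs (13%, against 4.54% of all genes) and all were higher in MM1S cells (1.81% of all genes). Beside NR3C1 these were STOM, a membrane scaffold protein, at 13.4, 9.99 and 7.99 CPM in MM1R cells and 30.1, 33 and 29.9 CPM in MM1S cells (log2 difference -1.57, standard error 0.22, FDR = 0.000762), and ZBTB16 (PLZF), a glucocorticoid-induced repressor, which had a ratio of 23.6-fold in summed CPM (95% Clopper-Pearson interval 7.75 to 117). ZBTB16 lost its call without MM1R RSL3 replicate 2, at an FDR of 0.05 after rounding. The receptor's target FKBP5, a chaperone of the receptor, was at 90.5, 102 and 116 CPM in MM1R cells and 91, 110.4 and 115 CPM in MM1S cells (-0.04, FDR = 0.922). TSC22D3 (GILZ), another target, was at 1702, 560.1 and 2376 CPM in MM1R cells and 2295, 299 and 225 CPM in MM1S cells (0.72, FDR = 0.71), and without MM1S RSL3 replicate 1 it was a DEG higher in MM1R cells, at 2.56 (FDR = 0.0423). The median of the list was -0.04, or 0.27 without that library.

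Surface and signalling lists gave single genes. Of 24 tested surface antigens and adhesion genes 2 were DEGs, both higher in MM1R cells, and the median was 0.15, or 0.35 without MM1S RSL3 replicate 1. CD52, the glycoprotein bound by alemtuzumab, was at 11.3, 10.2 and 10.0 CPM in MM1R cells and 1.9, 0.785 and 0.421 CPM in MM1S cells (log2 difference 3.38, standard error 0.38, FDR = 0.000154). ICAM1, the ligand of leukocyte integrins, was at 59.7, 51.8 and 55.8 CPM in MM1R cells and 10.4, 3.09 and 1.63 CPM in MM1S cells (log2 difference 3.5, standard error 0.75, FDR = 0.0209), and lost its call without MM1R RSL3 replicate 1 or 2 or MM1S RSL3 replicate 2 or 3 (FDR up to 0.083). Without MM1S RSL3 replicate 1, CD52 was at 4.11 and ICAM1 at 4.56. The laminin receptor subunit ITGA6 (0.96, FDR = 0.00111) and the integrin ITGAL (0.67, FDR = 0.0144) passed the FDR toward MM1R, and CD47, which signals against phagocytosis, toward MM1S (-0.48, FDR = 0.0332). Of 19 tested myeloma translocation and driver genes 1 was a DEG, the fractalkine receptor CX3CR1, at 23.5, 47.1 and 31.5 CPM in MM1R cells and 1.31, 0.575 and 1.16 CPM in MM1S cells (log2 difference 5.08, standard error 0.88, FDR = 0.00719). MAF, the transcription factor translocated in these lines, was at 801 to 840.4 CPM in MM1R cells and 663 to 692 CPM in MM1S cells (0.26, FDR = 0.39). Its targets were at -0.43 for cyclin D2 (CCND2, FDR = 0.372) and -0.02 for the integrin ITGB7 (FDR = 0.939). Of 26 interferon response genes 1 was a DEG, IFIT1, a sensor of uncapped RNA (2.9, 4.3 and 1.71 CPM in MM1R cells and 0.59, 0.575 and 0.894 CPM in MM1S cells, 2.1, FDR = 0.00866), with a list median of 0.46. SAMHD1, a nucleotide hydrolase, passed the FDR at 0.51 (FDR = 0.0482). None of the 8 tested HLA and antigen presentation genes was a DEG, and their master regulator CIITA passed the FDR at -0.55 (FDR = 0.0308). The median of that list was 0.21, or 0.61 without MM1S RSL3 replicate 1.

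Among the remaining lists, SQLE, the squalene epoxidase of cholesterol synthesis, was the DEG of 29 cholesterol and fatty acid genes, at 61.5, 72.2 and 58.3 CPM in MM1R cells and 27.2, 21.7 and 28.7 CPM in MM1S cells (log2 difference 1.31, standard error 0.13, FDR = 6.24e-05), and every MM1R library was above every MM1S library. ELOVL6, TM7SF2 and MSMO1, further enzymes of lipid synthesis, passed the FDR in the same direction at 0.74, 0.65 and 0.7. Of 16 drug transport genes ABCG2, the multidrug exporter, was higher in MM1R cells at 19.9, 23 and 20.5 CPM in MM1R cells and 0.918, 0.105 and 0.158 CPM in MM1S cells (log2 difference 5.83, standard error 0.58, FDR = 0.000106). ABCG1, a sterol exporter, was at 21.9, 17.8 and 14.4 CPM in MM1R cells and 85.4, 32.6 and 25.4 CPM in MM1S cells (log2 difference -1.4, standard error 0.38, FDR = 0.0448), and its call held only without MM1S RSL3 replicate 2 or 3 among the 12 libraries (FDR up to 0.137 without another). ABCG2 was at 7.26 and ABCG1 at -0.69 without MM1S RSL3 replicate 1. Of 35 chromatin regulators SMARCA1, an ISWI remodelling ATPase at low level, was the DEG, with a ratio of 18.8-fold in summed CPM (95% Clopper-Pearson interval 6.13 to 94). KDM6A and KDM5C, histone demethylases of chromosome X, and the DNA methyltransferase DNMT3A passed the FDR toward MM1R at 0.91, 0.63 and 0.75. Of 32 apoptosis regulators BCL2L2, an antiapoptotic BCL2 relative that has a readthrough transcript with its neighbour, was the DEG (1.4 to 2.52 CPM in MM1R cells and 0.0526 to 0.314 CPM in MM1S cells, 3.22, FDR = 0.000892). The BH3-only gene BMF passed the FDR at 0.78 (FDR = 0.018). Of 30 cytokine receptor and signalling genes STAT5A was the DEG (3.08 to 4.19 CPM in MM1R cells and 1 to 2.23 CPM in MM1S cells, 1.18, FDR = 0.0467), and its call held only without MM1S RSL3 replicate 1, MM1S untreated replicate 1 or MM1S untreated replicate 3 among the 12 libraries (FDR up to 0.149 without another). The lists of kinase feedback regulators (23 tested) and of NF-kappa-B factors and inhibitors (22 tested) held no DEG. The median of the NF-kappa-B list was -0.18, or 0.03 without MM1S RSL3 replicate 1.

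Markers of other cell types were low, and some moved with the line. The tested T and NK cell markers, 2 of the 9 in the table, summed to 9.06 to 10.7 CPM in MM1R and 4.79 to 7.05 CPM in MM1S cells, and CD3G and NKG7 had 0 counts in all 6 libraries. CD7, a T and NK cell antigen, was a DEG at 0.514 to 0.752 CPM in MM1R cells and 0 to 0.197 CPM in MM1S cells (2.42, FDR = 0.0391), a call that was lost in 8 of the 12 fits that each left out 1 library, those without any MM1R RSL3 library, MM1R untreated replicate 2 or 3, MM1S RSL3 replicate 2 or 3, or MM1S untreated replicate 2 (FDR up to 0.123). Of 10 myeloid markers 3 were tested and summed to 19.6 to 22.7 CPM in MM1R and 23.7 to 30.8 CPM in MM1S cells, and S100A8 was at 0. S100A9, its partner, was a DEG at 0.804 to 1.71 CPM in MM1R cells and 0.0523 to 0.328 CPM in MM1S cells (2.98, FDR = 0.0152) and lost its call without MM1R RSL3 replicate 3 or MM1S RSL3 replicate 2 or 3 (FDR up to 0.0739), and it was at 3.88 without MM1S RSL3 replicate 1. It was the only 1 of the 3 tested myeloid markers that was higher in MM1R cells. The others were higher in MM1S cells, and the list median was -0.45. B cell markers (5 of 10 tested) summed to 59.8 to 76.6 CPM in MM1R and 70.6 to 72.8 CPM in MM1S cells, and stromal, epithelial and erythroid markers (3 of 12 tested) to 10.7 to 16.7 CPM in MM1R and 5.42 to 30.0 CPM in MM1S cells with COL3A1 and KRT19 at 0. The median log2 difference was 0.73 for the B cell markers, or 1.21 without MM1S RSL3 replicate 1. For the stromal, epithelial and erythroid markers it was -0.16, or 1.32 without that library. The part of such cells in the line differences was not tested.

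In several MM1R-high genes, the MM1S library of passage 16 was closer to MM1R than those of passages 22 and 23, with and without RSL3. GPX1 was at 16.8, 1.02 and 0.541 CPM in the untreated MM1S libraries of passages 16, 22 and 23, GPX7 at 3.69, 0.408 and 0.344 CPM, ICAM1 at 20.0, 4.03 and 4.23 CPM and CX3CR1 at 8.45, 0.613 and 1.13 CPM. The corresponding RSL3 libraries, given above, had the same order of passage 16 over the others in GPX1, GPX7 and ICAM1. In CX3CR1 the MM1S RSL3 libraries of passages 16 and 23 were close together, at 1.31 and 1.16 CPM, with 0.575 CPM at passage 22. NR3C1, in contrast, was farther from MM1R at passage 16, at 150.1, 94.4 and 88 CPM untreated. The genes on only in MM1R cells were chosen for at most 3 counts in every MM1S RSL3 library, that of passage 16 included. Their level in MM1S cells under RSL3 was thus held low by the choice. It cannot show whether RSL3 alone lowered them. Over these genes, the median level of the passage 16 libraries was 4.37% of the MM1R level untreated and 4.49% with Fer-1 before RSL3. It was 0.977% under RSL3, the setting of the choice. The libraries of passages 22 and 23 were at 0 to 0.273%. The single genes above were picked for this pattern after their values were seen, and what accounts for it was not tested.

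The libraries given Fer-1 before RSL3 were not in the fit and served as further cultures under RSL3. Of the 633 DEGs, 599 (94.6%) had Fer-1 + RSL3 libraries that did not overlap between the lines, in the same direction, against 33.4% of all genes tested in either direction. Of the 181 DEGs found only under RSL3 alone, 155 did so. These libraries came from the same passages, and the check left out MM1R Fer-1 + RSL3 replicate 2. That library went against its label in part, with a median of 55.9% of the MM1S level over genes that were on only in MM1S cells and of 49.9% of the MM1R level over genes on only in MM1R cells. It was left out of the fit for that reason, together with the other Fer-1 libraries.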

How the data were processed

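The authors sequenced RNA of 18 libraries on a BGISEQ-500 (paired ends of 50 bp), ran FastQC 0.11.5, mapped reads to hg19 by STAR 2.7.3a and deposited a table of raw counts with 43735 genes. The counting tool, annotation and use of strand are not given in the sources used here. A second deposited table of counts divided by size factors was not used.

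Of the 43735 genes, 17213 had 0 counts in the 12 untreated and RSL3 libraries, and filterByExpr (minimum count 10) removed 12564 more. The 13958 genes kept hold 99.9% of counts. Counts were scaled by TMM and fitted as 4 group means (8 residual degrees of freedom) with edgeR 4.0.16 in R 4.3.3, by the robust quasi-likelihood test with Benjamini-Hochberg adjustment. DESeq2 1.42.0 and limma 3.58.1 served alternatives. The methods text prints an FDR of 0.5 and a figure legend 0.05; 0.05 was used. The steps were tested on simulated data.

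The genes named are NR3C1 and GPX4; in each direction the 10 DEGs with the smallest FDR (mean of at least 5 CPM, libraries not overlapping), the 5 largest with at most 3 counts in the other line, the 5 DEGs found only under RSL3 and the 5 genes overall with the smallest interaction p; up to 4 DEGs per list; and genes named after their values were seen. The members and lists were chosen with earlier results of these data known. Positions came from GENCODE on hg19, and promoters from RefSeq GRCh38.p14, joined by symbol. Some marker genes are not reported here.

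Replicate numbers stand for passages. Deviations from group means of the untreated and RSL3 library of 1 passage correlated at 0.0953 to 0.433. Across lines the numbers share no passage (0.0355 to 0.378).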

Additional observations from a re-analysis of the deposited data

Results flagged for a closer look

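In 7 genes, the change relative to the untreated library of the same passage had opposite signs in the 2 lines, in every passage. The difference of these changes (MM1R minus MM1S, log2) was 1.82 in HES1, 2.07 in ENTPD3-AS1, 1.48 in NRG4, 0.72 in RRM2B, 1.21 in NHSL2, -1.02 in AMH and -1.69 in CCDC96. Some of the changes were close to 0. AMH changed by 0.095, 0.109 and 0.013 in MM1S cells, which is hardly a movement. CCDC96, at under 1 CPM in both lines, changed by -0.372, -0.256 and -0.166 in MM1R cells. With the low-count filter used here, none passed the adjustment of the edgeR quasi-likelihood p-values by Benjamini-Hochberg (FDR = 1), whereas HES1 passed with no filter (FDR = 0.00673) and by DESeq2 (FDR = 0.00798). All 7 were picked from the genes with the smallest interaction p.

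Replicate 2 of the libraries labelled MM1R Fer-1 + RSL3, outside the comparison, reached 55.9% of the MM1S level over genes that were on only in MM1S cells, whereas the other 2 libraries of its group reached 3.05% and 0.118%.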

How the results depend on the processing

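The line DEGs under RSL3 numbered 441 to 871 when each library was left out in turn, the untreated line DEGs 387 to 805, the DEGs shared by both 312 to 554, and the interaction gave 0 to 0. The 381 higher in MM1R cells became 599 without MM1S RSL3 replicate 1 and 245 without MM1S RSL3 replicate 2, and those higher in MM1S cells went from 252 to 163 without MM1R RSL3 replicate 2. The share higher in MM1R cells was 60.2%, and it ran from 51.0% without MM1S RSL3 replicate 3 to 68.8% without MM1S RSL3 replicate 1. With a stricter filter on low counts the numbers were 394 under RSL3, 381 untreated and 296 shared, and with no limit on the fold change 1173, 1312 and 817. At the FDR of 0.5 printed in the methods text they were 1244, 1138 and 798. The interaction gave 1 DEG by DESeq2 and 1 with no filter, HES1 in both. The replicate number as a fixed block gave 835 DEGs under RSL3 and the passage as a random block 664, and neither changed the number of interaction DEGs. RLE scaling gave 637, upper-quartile scaling 625, DESeq2 746, no filter 709, all 18 libraries 670 and only the 6 RSL3 libraries 422.

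Among the genes that RSL3 raised, line DEGs numbered 10 to 41 with a library left out, 22 by DESeq2, 17 with all 18 libraries, 7 with only the 2 groups, 19 with the replicate number as a block and 37 with MM1R RSL3 replicate 3 and MM1S RSL3 replicate 1 both left out, a setting added after the data were seen. Their median line difference was -0.41 to 0.45 with a library left out and turned to 0.32 without those 2. Among the genes that RSL3 lowered, line DEGs numbered 3 to 6 with a library left out, 2 with the stricter filter and 3 with only the 2 groups, and the median was -0.17 to 0.11 and turned to 0.0067 with the stricter filter. The cause was not tested. STARD13 turned to -0.019 without the 2 strong responders and to -0.011 and as low as -0.023 in fits without 1 library, and NHSL2 to 0.0059. Of 60 named genes that were DEGs, 60 remained so by RLE, 57 by upper-quartile scaling, 60 by DESeq2, 56 with no filter, 58 with all 18 libraries, 58 with the replicate number as a block, 56 with the passage as a random block, 55 without the strong responders, and 42 of 45 with the stricter filter. With only the 2 RSL3 groups in the fit, 49 of 59 did, and NRG4, GIMAP7, DCHS1, AMH, WTIP, TMEM86B, GPX7, FTH1, STAT5A and ABCG1 lost their call. Values under 3 counts per library are limited by depth.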
